A study of Mus musculus with 13 samples.

Results

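Type I interferon-stimulated genes were followed in microglia, the resident macrophages of the brain, after repeated social defeat (RSD). The genes were chosen by name: 39 symbols were listed, and 38 of them were among the 14518 gene entries of the deposited table, while Ifi207 was not analysed here. The 7 RSD samples came from 2-month-old C57BL/6 mice that had gone through 6 cycles of social defeat, and the 6 control (CON) samples came from 2-month-old C57BL/6 mice that had not. The RSD samples were taken 24 days after the last cycle. Cells were sorted as CD11b+/CD45int after a Percoll gradient and their RNA was sequenced in bulk. In such bulk samples, fewer cells of a type and less RNA per cell cannot be told apart.

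Type I interferons signal through the receptor IFNAR1/IFNAR2 and the kinases JAK1 and TYK2. The kinases activate STAT proteins, STAT2 among them, which join IRF9 in the complex ISGF3, and ISGF3 switches on genes that carry an interferon-stimulated response element near their start. The products sense or degrade foreign RNA, block viral entry and release, attach the ubiquitin-like protein ISG15 to other proteins, or feed back on the pathway. Microglia express many of these genes at a low resting level, and a small interferon-responsive state of microglia is known from ageing and injured brain.

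The promoters of 5 members are shown because they carry, or lack, the letters of that response element and because their levels in the control library CON 18, described after the promoters, ran from low to high. The sequences are from RefSeq on GRCm38.p6, each running 5′ to 3′ on its gene's strand for 300 bases, 250 before the gene's start and 50 after it, with matches to GAAA-NN-GAAA (GAAA, any 2 bases, GAAA) on either strand in capitals, neighbouring matches merged into 1 run. The windows are chr12:26456403-26456702 on the minus strand for Rsad2, chr11:82951852-82952151 on the plus strand for Slfn5, chr4:156200769-156201068 on the minus strand for Isg15, chr3:142620413-142620712 on the plus strand for Gbp2 and chr6:3399522-3399821 on the minus strand for Samd9l.
Rsad2: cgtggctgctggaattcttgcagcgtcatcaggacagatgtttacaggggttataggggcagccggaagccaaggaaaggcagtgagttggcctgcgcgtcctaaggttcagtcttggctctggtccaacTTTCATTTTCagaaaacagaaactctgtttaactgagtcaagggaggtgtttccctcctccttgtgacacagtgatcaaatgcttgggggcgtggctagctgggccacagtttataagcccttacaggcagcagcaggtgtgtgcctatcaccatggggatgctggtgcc
Slfn5: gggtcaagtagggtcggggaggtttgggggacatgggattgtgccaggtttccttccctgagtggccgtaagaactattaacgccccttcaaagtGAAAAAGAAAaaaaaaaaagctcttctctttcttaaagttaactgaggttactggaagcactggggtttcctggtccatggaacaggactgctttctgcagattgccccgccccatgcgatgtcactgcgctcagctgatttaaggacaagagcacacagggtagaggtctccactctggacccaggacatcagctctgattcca
Isg15: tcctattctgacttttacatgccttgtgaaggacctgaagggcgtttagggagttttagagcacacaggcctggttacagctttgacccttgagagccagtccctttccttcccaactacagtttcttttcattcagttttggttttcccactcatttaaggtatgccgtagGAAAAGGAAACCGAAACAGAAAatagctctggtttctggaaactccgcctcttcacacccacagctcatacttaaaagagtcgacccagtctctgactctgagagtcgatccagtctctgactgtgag
Gbp2: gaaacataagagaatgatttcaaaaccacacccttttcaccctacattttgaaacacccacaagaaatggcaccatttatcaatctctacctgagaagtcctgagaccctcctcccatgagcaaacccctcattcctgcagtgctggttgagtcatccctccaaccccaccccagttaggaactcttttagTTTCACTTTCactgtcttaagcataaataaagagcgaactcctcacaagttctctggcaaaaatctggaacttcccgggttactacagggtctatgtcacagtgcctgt
Samd9l: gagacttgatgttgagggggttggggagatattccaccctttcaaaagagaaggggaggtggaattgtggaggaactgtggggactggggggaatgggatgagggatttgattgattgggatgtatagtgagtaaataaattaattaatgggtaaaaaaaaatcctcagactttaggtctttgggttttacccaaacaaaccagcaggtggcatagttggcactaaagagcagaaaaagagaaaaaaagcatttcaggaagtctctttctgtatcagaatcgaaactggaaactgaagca

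The match began 120 bases before the start in Rsad2, 155 bases before it in Slfn5 and 59 bases before it in Gbp2. In Isg15, 3 overlapping matches began 78 bases before the start and formed a run of purine-rich repeats. These letters are not in the Samd9l window. A RefSeq promoter was found for 29 of the 38 members, and 14 of these 29 held a match (48.3%), against 943 of all 27025 genes with a promoter (3.49%). The STAT-type letters TTCNNNGAA, also read on both strands and allowed to overlap the other motif, stood in 6 of the 29 members' windows (20.7%) and in 8.47% of all genes' windows. A match is a string of letters, not a measured binding site.

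Before the comparison, 2 of the 13 libraries stood apart. Depth was 9.76 to 12.3 M recovered reads, 10.8 ± 0.826 M in RSD and 11.3 ± 0.979 M in CON (SD; n = 7 and 6; two-sided exact permutation test over 1716 assignments, p = 0.335). The median Spearman correlation of a library with the other 12, across genes that are not independent replicates, was 0.942 for CON 18 and 0.968 for RSD 8, against 0.989 to 0.992 for the other libraries. All 8 measured markers of border-associated macrophages (10 listed; Lyve1 and Cd209f were not analysed here) were over 2-fold the median of the other libraries in CON 18. Their summed level was 4899 to 8565 normalized reads in RSD and 7355 to 8374 in CON without CON 18, and it was 33133 in CON 18. Outside CON 18 most of this sum was 1 gene, Stab1, at 4602 to 8191 in RSD and 7119 to 8148 in CON. The mannose receptor gene Mrc1 was at 45.2 times the median of the other libraries in CON 18. The platelet factor gene Pf4 had 219 normalized reads in CON 18 and at most 8.70 in any other library. The 10 microglial markers summed to 305624 to 323602 in RSD, to 310503 to 324844 in CON without CON 18 and to 201252 in CON 18. In CON 18, 3 of them, Sall1, Siglech and P2ry12, were under 50% of the median of the other libraries. The list did not fall as a block, since Olfml3 was at 0.898 and Fcrls at 1.13 times that median. Other marker lists moved in CON 18 as well. There 2 of 3 astrocyte markers were over 2-fold and 1 was under 50%. Of 6 monocyte markers, 3 were over 2-fold and 2 under 50%, and 4 of 6 neutrophil markers were under 50%. In RSD 8 the deviations of all genes followed transcript GC content, with a Spearman correlation of -0.728 over 11878 genes. Differences that leaving out CON 18 turned or moved by over 1.5 times are given also without it.

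Members differed widely in resting level. Per kilobase of exon, the median level over the 13 libraries was highest for Trim30a (487 normalized reads per kb), a TRIM protein that in mouse limits Toll-like receptor signalling, and for Slfn8 (421), a schlafen-family gene. Parp14 (211), Eif2ak2 (204), Dtx3l (186) and Bst2 (185) followed. The genes most often used as interferon reporters were low in these microglia: Isg15 stood at 13.96, Ifit1 at 11.5, Cxcl10 at 9.38 and Rsad2 at 4.21 normalized reads per kb. Oasl1 (1.56) and Ifi44 (0.339) were lowest and did not pass the filter on low counts, which left 36 members for testing. Isg15 rested on 5 to 18 reads a library, so its counting error is large, whereas Trim30a rested on 1728 to 2630 reads.

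In RSD microglia 24 days after stress, no member passed the test against CON. Of the 36 tested members, 26 had a negative and 10 a positive log2 difference (RSD minus CON), against 48.6% negative among all 12496 genes tested. The median difference was -0.11 log2 for the members and 0.01 for all genes, and members ranged from -0.57 to 0.43. With limma and Benjamini-Hochberg adjustment 0 of the 36 members were called, as were 0 of 12496 genes (0%), and at unadjusted p under 0.05 there were 0 members against 500 genes (4%). edgeR's quasi-likelihood test on the recovered reads called 0 members and 0 of 12496 genes. It had 1 member, Rtp4, lower at unadjusted p under 0.05 (2.78% of members, 2.89% of all genes). DESeq2 called 0 members and 2 genes (0.016%), and had 3 members, Oasl2, Ifitm3 and Rtp4, lower at unadjusted p under 0.05 (8.33% of members, 2.46% of all genes). In no member did the RSD and CON libraries fall into ranges that did not overlap (all genes: 0.032% in each direction).

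**Figure D1:**
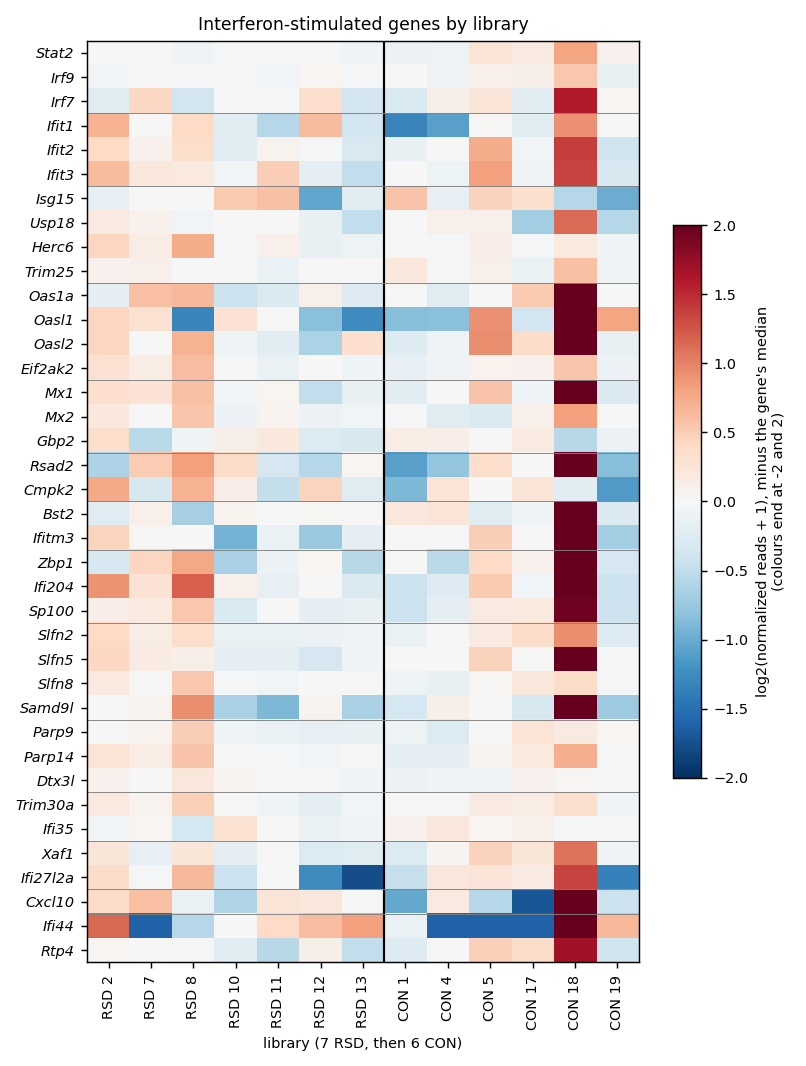
Each row is a member and each column a library, the 7 RSD libraries left of the 6 CON libraries; colour is log2(normalized reads + 1) minus the gene's median over the 13 libraries. The CON 18 column is the strongest, with a median deviation of 1.11, and RSD 8 follows with 0.37.

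Much of the spread among the control libraries lay in CON 18. It was the highest library for 28 of the 38 members in the table. Its members' median deviation was 1.11 log2 above their own medians, and the other 12 libraries lay between -0.15 and 0.37. In CON 18, 20 of the 36 members exceeded 2-fold the median of the other libraries (55.6%), against 6.36% of all genes. Member genes took 0.224% of its reads, against 0.109% to 0.153% in the others. The markers of border-associated macrophages moved with the members in this library, and their part in the members' levels was not tested. Without CON 18, 21 members were positive and 15 negative, against 49.7% negative among all genes, and the median was 0.02. Without both CON 18 and RSD 8, 17 members were positive and 19 negative, and the median was -0.0038.

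**Figure D2:**
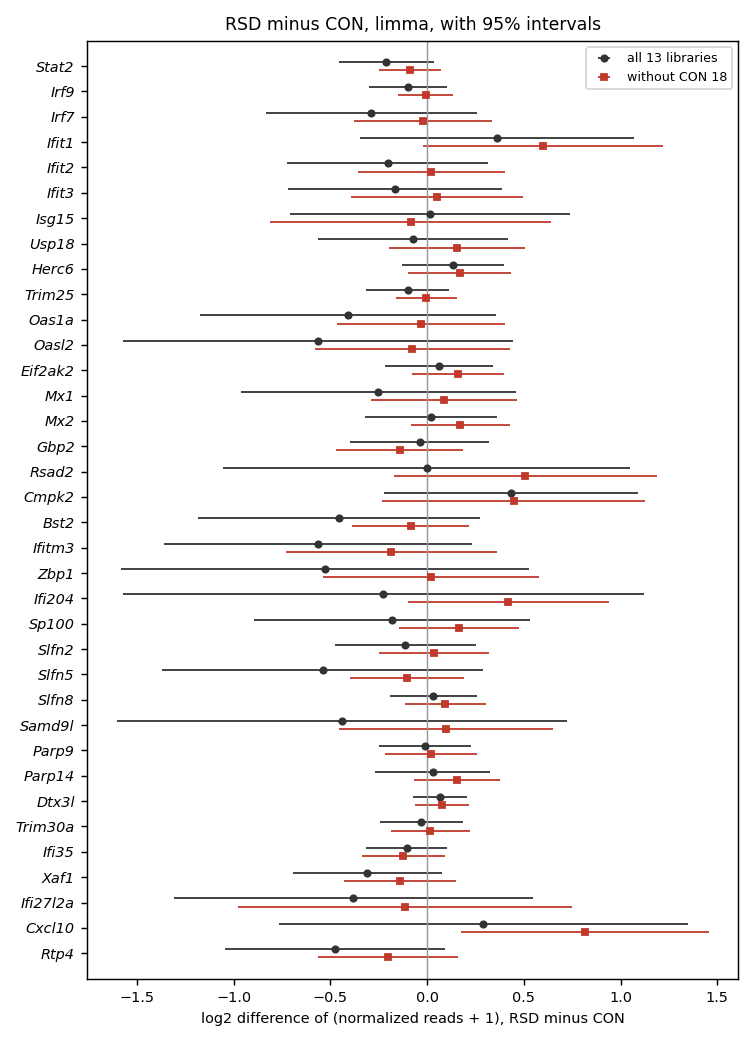
The log2 difference (RSD minus CON) of each tested member with its 95% interval from limma, over all 13 libraries (circles) and without CON 18 (squares). Every circle's interval spans 0, and the intervals of Ifi204, Samd9l and Zbp1 are narrower without CON 18.

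None of the 3 transcription factor genes among the members passed the test. Stat2, which encodes a part of ISGF3 (chr10:128270559-128292849, GRCm38), had 519 to 556 normalized reads in RSD (median 543) and 507 to 949 in CON (median 599). The 7 RSD libraries were tightly packed, and the CON libraries spread on both sides of them, with CON 18 on top. The difference was -0.21 ± 0.12 log2 (SE, 95% interval -0.46 to 0.04, adjusted p = 0.821 with limma), the smallest unadjusted p of any member (0.0900). Irf9, the DNA-binding part of ISGF3 (chr14:55603571-55610030), had 532 to 572 in RSD (median 548) and 499.8 to 809 in CON (median 575), a difference of -0.10 ± 0.09. Irf7, which drives the interferon-alpha genes (chr7:141262706-141266481), had 47.8 to 83.4 in RSD (median 61.1) and 50.3 to 189 in CON (median 65.8), a difference of -0.29 ± 0.26. Without CON 18 the differences were -0.09 for Stat2, -0.01 for Irf9 and -0.02 for Irf7. All 3 factors thus had overlapping groups, and their highest library was CON 18.

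**Figure D3:**
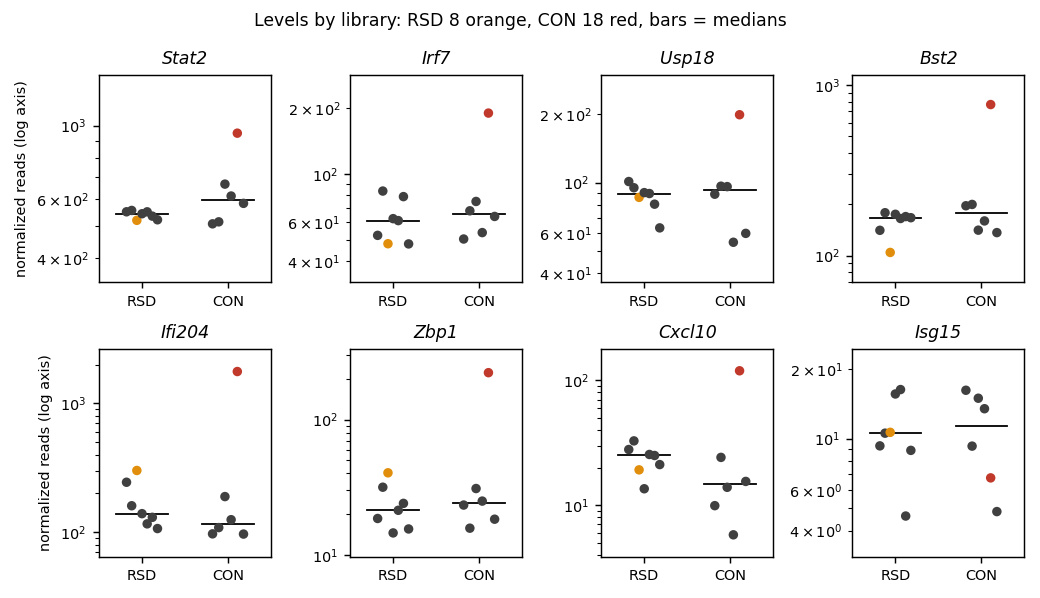
Normalized reads by library on a log axis for 8 members, RSD left and CON right of each panel, with a bar at each group's median, RSD 8 in orange and CON 18 in red. CON 18 is the highest library in every panel but that of Isg15, where its 6.76 normalized reads lie inside the RSD range of 4.62 to 16.3.

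IFIT1 binds foreign RNA by its unmodified cap, and the IFIT genes stand in a cluster on chromosome 19. Ifit1 (chr19:34640871-34650009) had 20.4 to 49.97 normalized reads in RSD (median 30.6) and 11.7 to 58.6 in CON (median 28.4), a difference of 0.36 ± 0.33, and 0.15 without CON 1. CON 1 and CON 4 were its lowest libraries, at 11.7 and 13.9, and CON 18 its highest. Ifit2 (chr19:34550694-34576419) had 75.6 to 124 in RSD (median 98.7) and 70.6 to 247 in CON (median 92.0), a difference of -0.20 ± 0.24. Ifit3 (chr19:34583531-34588731) had 52.2 to 115 in RSD (median 84.1) and 59.0 to 190.4 in CON (median 71.5), a difference of -0.17 ± 0.26. For both genes RSD had the higher median and CON the highest library. Without CON 18 the differences were 0.60 for Ifit1, 0.02 for Ifit2 and 0.05 for Ifit3. Ifit3 has a near-identical neighbour, so its reads may have been split in counting.

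Isg15 itself, the ubiquitin-like modifier (chr4:156199424-156200818), was low in both groups. It had 4.62, 8.89, 9.30, 10.5, 10.6, 15.6 and 16.3 normalized reads in the RSD libraries and 4.83, 6.76, 9.28, 13.5, 14.9 and 16.2 in the CON libraries, a difference of 0.02 ± 0.34 with an interval of -0.71 to 0.74, and -0.09 without CON 18. Its promoter held 3 overlapping matches. In CON 18 Isg15 was at 0.638 times the median of the other libraries, on 6 reads, where all libraries ran from 5 to 18 reads. Usp18, which removes ISG15 and damps the receptor (chr6:121245906-121270917), had 63.4 to 101 in RSD (median 89.6) and 54.8 to 198 in CON (median 92.5), a difference of -0.07 ± 0.23, and 0.15 without CON 18. Herc6, the main ISG15 ligase in mouse (chr6:57581000-57664632), had 542 to 998 in RSD (median 640.3) and 567 to 684 in CON (median 592), a difference of 0.13 ± 0.12, and 0.04 without RSD 8. RSD 8 and RSD 2 were its highest libraries, and the other RSD libraries lay within or just below the CON range. Trim25, a ubiquitin ligase that acts on the RNA sensor RIG-I, differed by -0.10 ± 0.10, and by -0.0060 without CON 18.

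The OAS enzymes make a messenger that activates RNase L, and PKR, the product of Eif2ak2, stops translation on double-stranded RNA. Oasl2 (chr5:114896936-114912234) had 32.4 to 83.0 normalized reads in RSD (median 50.6) and 42.2 to 437 in CON (median 56.3), a difference of -0.57 ± 0.47. Leaving out CON 18 brought this to -0.08 ± 0.24. Oas1a followed the same course, with a difference of -0.41 ± 0.36 over all libraries and -0.03 without CON 18. Oasl1, which in mouse blocks Irf7 translation (chr5:114923240-114937915), had 1.06 to 5.81 in RSD (median 4.07) and 1.80 to 43.9 in CON (median 5.31), and was not tested. Its highest library was CON 18, and the other CON libraries ended at 8.54. Eif2ak2, much more abundant, had 951 to 1606 in RSD (median 1044) and 934 to 1534 in CON (median 1042), a difference of 0.06 ± 0.13, and 0.16 without CON 18.

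The MX proteins are antiviral GTPases. Mx1 had 91.6 to 195 normalized reads in RSD (median 132) and 105 to 532 in CON (median 125), a difference of -0.25 ± 0.33, and 0.09 without CON 18. Mx2 had 199.8 to 321 in RSD (median 217) and 177 to 383 in CON (median 215), a difference of 0.02 ± 0.16, and 0.17 without CON 18. Gbp2, a guanylate-binding GTPase that also responds to interferon-gamma, behaved otherwise in CON 18, where it was at 0.645 times the median of the other libraries and lowest of all. It had 50.6 to 94.1 in RSD (median 69.2) and 49.6 to 83.6 in CON (median 77.2), a difference of -0.04 ± 0.17, and -0.14 without CON 18.

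Rsad2, which encodes viperin, and Cmpk2, a mitochondrial nucleotide kinase, are neighbours on chromosome 12. Rsad2 (chr12:26442746-26456452) had 11.6 to 33.0 normalized reads in RSD (median 18.9) and 8.09 to 115 in CON (median 14.2), a difference of -0.0031 ± 0.50, and 0.51 ± 0.32 without CON 18. Cmpk2 (chr12:26469204-26479837) had 11.2 to 27.9 in RSD (median 17.7) and 6.77 to 19.5 in CON (median 14.8). Its difference of 0.43 ± 0.31 was the highest of the 36, with an interval of -0.22 to 1.09, and it was 0.27 without CON 19. The pair parted in CON 18, where Rsad2 was at 7.07 times and Cmpk2 at 0.803 times the median of the other libraries.

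Bst2, or tetherin, holds budding virus at the membrane (chr8:71534255-71537456). It had 104 to 178 normalized reads in RSD (median 167) and 136 to 769 in CON (median 178), a difference of -0.46 ± 0.34, and -0.09 ± 0.14 without CON 18. RSD 8 was its lowest library and CON 18 its highest. Ifitm3, which blocks viral fusion in endosomes (chr7:141009586-141010770), had 13.5 to 37.2 in RSD (median 24.4) and 16.4 to 131 in CON (median 26.9), a difference of -0.57 ± 0.38, and -0.19 ± 0.26 without CON 18. Among its CON libraries the highest apart from CON 18 was 38.4, so the groups lay over each other.

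The genes for nucleic acid sensors were also high in CON 18. Ifi204, a PYHIN DNA sensor (chr1:173747293-173766943), had 107 to 301 normalized reads in RSD (median 139) and 96.7 to 1765 in CON (median 117), a difference of -0.23 ± 0.62. CON 18 was at 13.8 times the median of the other libraries, and without it the difference was 0.42 ± 0.25 (unadjusted p = 0.107 with limma). Zbp1, a sensor of Z-form nucleic acid that can start necroptosis (chr2:173206612-173218923), had 14.6 to 40.4 in RSD (median 21.4) and 15.8 to 222 in CON (median 24.2), a difference of -0.53 ± 0.50, and 0.02 ± 0.26 without CON 18. Sp100, a nuclear-body protein, had 287 to 515 in RSD (median 355) and 263 to 1376 in CON (median 356), a difference of -0.18 ± 0.33, and 0.16 ± 0.15 without CON 18. In all 3 genes the mean over CON lay above every CON library but CON 18.

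Among schlafen and related genes, Slfn5 had 83.2 to 141 normalized reads in RSD (median 101) and 105 to 694 in CON (median 106), a difference of -0.54 ± 0.39, and -0.10 without CON 18. Samd9l, a translation-repressing antiviral gene, had 84.5 to 303 in RSD (median 158) and 94.7 to 1243 in CON (median 142), a difference of -0.44 ± 0.54, and 0.10 without CON 18. Slfn5 and Samd9l were at 6.58 and 8.73 times the median of the other libraries in CON 18; only the Slfn5 promoter held a match. Slfn8 and Slfn2 differed by 0.03 ± 0.11 and -0.11 ± 0.17, and by 0.09 and 0.04 without CON 18. The genes of the ADP-ribosylating pair PARP9 and DTX3L, and Parp14, a mono-ADP-ribosyltransferase, had differences of -0.01 ± 0.11, 0.07 ± 0.07 and 0.03 ± 0.14. Without CON 18 these were 0.02, 0.08 and 0.15. Parp9 and Dtx3l share 458 exon bases on opposite strands, and the use of strand in counting is not given in the sources used here. Trim30a and Ifi35, an NMI partner, differed by -0.03 ± 0.10 and -0.11 ± 0.10, and by 0.02 and -0.12 without CON 18.

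Xaf1, a pro-apoptotic gene (chr11:72301629-72313733), had 129.5 to 186 normalized reads in RSD (median 140.3) and 129.4 to 335 in CON (median 175), a difference of -0.31 ± 0.18, and -0.14 without CON 18. Ifi27l2a, a small protein of mitochondria that marks interferon-responsive brain cells, had 5.56 to 34.1 in RSD (median 21.1) and 7.73 to 56.3 in CON (median 24.5), a difference of -0.38 ± 0.44, and -0.12 without CON 18. Rtp4, a Golgi chaperone that also dampens the response (chr16:23520291-23614222), had 67.2 to 107 in RSD (median 97.9) and 75.4 to 319 in CON (median 114), a difference of -0.47 ± 0.27, and -0.20 without CON 18. For Xaf1 and Rtp4, CON 5, CON 17 and CON 18 lay above every RSD library, and the other 3 CON libraries did not. Ifi44 had 0 to 5.81 in RSD (median 3.05) and 0 to 22.5 in CON (median 0.899), and was not tested.

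Cxcl10, the T cell-attracting chemokine (chr5:92346638-92348889), had the smallest p of the members once CON 18 was left out. It had 13.5, 19.2, 21.1, 25.0, 25.4, 27.9 and 32.7 normalized reads in the RSD libraries and 5.77, 9.89, 13.9, 15.5, 24.1 and 119 in the CON libraries. RSD medians were higher, 25.0 against 14.7, while the RSD mean was lower, 23.5 ± 6.25 against 31.4 ± 43.6 (SD; n = 7 and 6). The difference was 0.29 ± 0.50 over all libraries and 0.81 ± 0.30 without CON 18. In limma's fit without CON 18 across all genes, it was the only member at unadjusted p under 0.05, with an adjusted p of 0.745 (Benjamini-Hochberg). In that fit 2.49% of all genes were higher at this level, so 1 of 36 (2.78%) is near the background. The RSD and CON libraries overlapped, since CON 4 at 24.1 stood above 3 of the RSD libraries. On the recovered reads, edgeR gave -0.40 and DESeq2 -0.42 for the same gene over all 13 libraries, the opposite sign.

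Members with and without the promoter letters were high in CON 18. The ratio of CON 18 to the median of the other libraries was over 2-fold in 8 of the 14 members with a GAAA-NN-GAAA match (median 2.36, range 0.638 to 7.07) and in 8 of the 15 with a promoter and no match (median 2.18, range 0.803 to 12.6). Those without a match included the untested Oasl1 (12.6) and Ifi44 (11.6), and the highest tested one was Oasl2 (8.88). Among the tested members the order was Ifi204 (13.8), Zbp1 (9.92), Oasl2 (8.88), Samd9l (8.73), Rsad2 (7.07), Slfn5 (6.58) and Cxcl10 (5.93), with the rest below. The untested Oasl1 and Ifi44, which rest on few reads, had 43.9 and 22.5 normalized reads in CON 18 and at most 8.54 and 5.81 in any other library. The IFIT genes were lower in the order, at 2.07 for Ifit1, 2.66 for Ifit2 and 2.64 for Ifit3. Herc6 (1.15), Dtx3l (1.02), Ifi35 (0.975), Cmpk2, Gbp2 and Isg15 were near or below 1. These values describe 1 library and have no replicate.

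**Figure D4:**
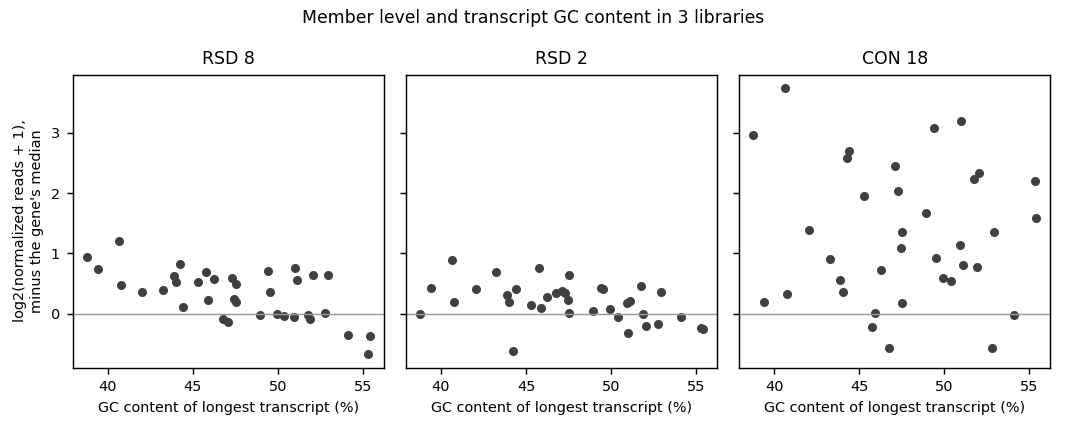
Each point is a tested member: the GC content of its longest transcript in percent against its log2 level minus the gene's median, in RSD 8, RSD 2 and CON 18. The points slope down in RSD 8 and RSD 2, with Spearman correlations of -0.499 and -0.458 over the 36 members, and show no slope in CON 18, with -0.014.

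In RSD 8 the tested members followed GC content. The 3 tested members with a longest transcript of at least 54% GC, Irf7, Bst2 and Ifi35, were at 0.621 to 0.774 times the median of the other libraries. The 7 tested members of at most 44% GC, Ifit1, Ifit2, Herc6, Eif2ak2, Ifi204, Samd9l and Trim30a, were at 1.30 to 2.36 times it. The untested Oasl1 (56.3% GC) and Ifi44 (40.4% GC) had 1.06 normalized reads each there, below their medians at either end of the GC range. These limits were set after the values were seen and carry no test. RSD 8 held 3 members over 2-fold (8.33%), against 1.44% of all genes. Over all genes the correlation of deviation with GC content was -0.728 in RSD 8, -0.567 in RSD 2 and -0.051 in RSD 7, and 0.185, 0.406 and 0.232 in CON 1, CON 4 and CON 5. Among the samples numbered 10 to 19 it lay between 0.084 and 0.373 in RSD and between -0.085 and -0.031 in CON.

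The samples carry numbers 1 to 8 (RSD 2, 7 and 8; CON 1, 4 and 5) and 10 to 19 (RSD 10 to 13; CON 17 to 19), whose meaning the labels do not give. Within the lower numbers 26 members were positive and 10 negative, with a median of 0.24 against -0.01 for all genes, 49% of which were positive. limma called 0 members and 0 of 12492 genes, with a smallest adjusted p of 0.204 for the members and for all genes. Of the 36 members, 9 were higher in RSD at unadjusted p under 0.05 (25.0%, against 12% of all genes). The members were Ifit1 (1.16), Ifi204 (0.85), Mx2 (0.45), Sp100 (0.44), Parp14 (0.43), Eif2ak2 (0.41), Herc6 (0.41), Parp9 (0.32) and Slfn8 (0.31), each a log2 difference. For 6 of the 36 (Herc6, Eif2ak2, Mx2, Parp9, Parp14 and Dtx3l) the RSD libraries lay wholly above the CON libraries (16.7%), which is near the 16.2% of all genes that did so. RSD 8 and RSD 2, the libraries with the most negative correlation with GC content, are 2 of the 3 RSD libraries here, and the part of GC content in these differences was not tested.

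Within the higher numbers the balance ran the other way. There 4 members were positive and 32 negative, with a median of -0.38, and 48.8% of all genes were negative. Parp9 (-0.30), Stat2 (-0.38) and Xaf1 (-0.60) were lower in RSD at unadjusted p under 0.05, which is 8.33% of the members against 2.43% of all genes. limma called 0 members and 0 of 12577 genes, with a smallest adjusted p of 0.726 for the members and for all genes. In Stat2, Slfn5 and Parp9 the RSD libraries lay wholly below the CON libraries (8.33% of members, 4.27% of all genes), and leaving out CON 18 left the same 3 genes so placed while 9.66% of all genes then were. Usp18 and Bst2 then lay wholly above (5.56% of members, 9.03% of all genes). Without CON 18 this balance was 14 positive to 22 negative with a median of -0.05 (50.2% of all genes negative). Parp9 stayed at -0.29 ± 0.08, 1 of 36 members (2.78%) against 4.35% of all genes lower at unadjusted p under 0.05. In that fit Usp18 (0.48 ± 0.20) and Cxcl10 (1.04 ± 0.44) were higher at unadjusted p under 0.05 (5.56% of members, 5.14% of all genes), limma called 11 genes (0.086%), and 0 members were among them.

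**Figure D5:**
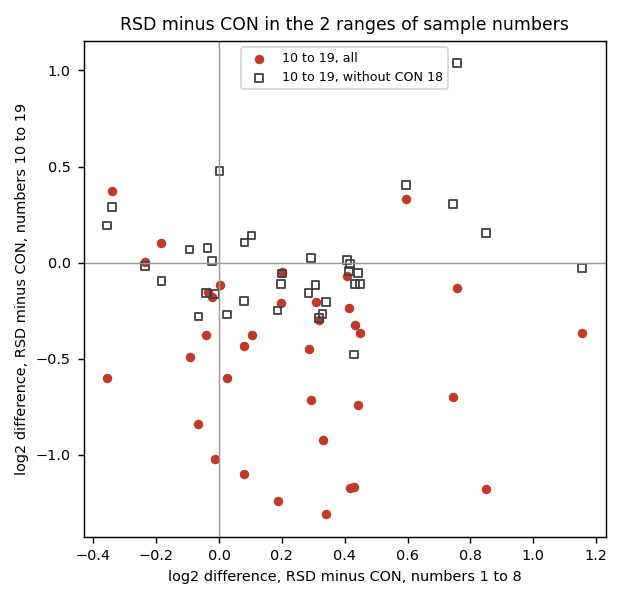
Each tested member's log2 difference (RSD minus CON) in samples numbered 1 to 8 on the x axis against that in samples numbered 10 to 19 on the y axis, with all libraries (filled) and without CON 18 (open squares). Most filled points lie right of 0 and below 0, at medians of 0.24 and -0.38, and the open squares lie nearer 0, at -0.05.

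The difference between the number ranges was tested as an interaction in limma (10 to 19 minus 1 to 8). Of the 36 members, 33 were negative, against 47.8% of all genes, with a median of -0.64. limma called 0 members and 0 of 12496 genes, with 11 members (30.6%, all negative) and 11.8% of all genes on the negative side at unadjusted p under 0.05. edgeR also called 0 members and 0 of 12496 genes. It had 14 members (38.9%, all negative) and 13.4% of all genes on the negative side at unadjusted p under 0.05. In limma's fit without CON 18 alone, 25 members were negative and 11 positive, with a median of -0.29 (48.0% of all genes negative). Leaving out RSD 8 as well gave 26 negative and 10 positive, with a median of -0.21 (48.7% of all genes negative). Without CON 18 and RSD 8, limma called 463 genes (3.69%) and 2 members (5.56%), Parp14 (-0.42 ± 0.10, adjusted p = 0.0255) and Parp9 (-0.46 ± 0.12, adjusted p = 0.0343). edgeR without the same libraries also called both genes, with adjusted p of 0.0220 and 0.0308. The calls depended on which libraries entered: limma called 0 genes without CON 18 alone and 0 without RSD 8 alone. Without RSD 7, which leaves RSD 2 and RSD 8 as the RSD libraries of the lower numbers, limma called 1457 genes (11.7%) and 6 members (16.7%), Parp9 (-0.67), Parp14 (-0.85), Slfn8 (-0.64), Herc6 (-0.62), Eif2ak2 (-0.75) and Mx2 (-0.94).

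Parp9 and Parp14 stand near each other on chromosome 16 and were picked for description after their values were seen. Parp9 had 714, 745 and 991 normalized reads in RSD 2, 7 and 8, against 655, 585 and 707 in CON 1, 4 and 5. Within the higher numbers it had 666, 643, 629 and 638 in RSD 10 to 13, against 849.9, 802 and 726 in CON 17 to 19. The RSD libraries lay above CON in the lower numbers and below it in the higher ones, without overlap in either. Of all genes, 16.2% lay wholly above in the lower numbers and 4.27% wholly below in the higher ones. The share of genes that did both was not counted. Parp14 had 2372, 2171 and 2920.0 in RSD 2, 7 and 8, against 1733, 1731 and 2042 in CON 1, 4 and 5. In the higher numbers its RSD libraries had 1878 to 1959.8 and its CON libraries 2249.7, 3241 and 1924, so that CON 19 lay inside the RSD range. The libraries of the number ranges also differ in their correlation with GC content, and the part of this in both genes was not tested.

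The upstream genes of the pathway were followed as a list: receptors, kinases, phosphatases, SOCS proteins and IRFs. All 13 were measured, 4 were positive and 9 negative (48.6% of all genes were negative), the median was -0.05, and limma called 0 of them, with 0 at unadjusted p under 0.05; edgeR and DESeq2 called 0 as well. Ifnar1, which encodes a receptor chain, had 1587 to 1749 normalized reads in RSD and 1532 to 4736 in CON, where CON 18 was on top and the others ended at 1737, a difference of -0.23 ± 0.22, and 0.03 without CON 18. Ifnar2 differed by -0.05 ± 0.13, and by 0.08 without CON 18. Tyk2 (-0.18 ± 0.11), Irf8 (-0.14 ± 0.08), a factor that defines microglia, and the feedback inhibitor Socs1 (-0.39 ± 0.27) had the smallest p of the list, and all 3 were lowest in RSD 8, without which the differences were -0.09, -0.07 and -0.20. Of 10 interferon genes only Ifnk was in the table, at 2.04 to 9.50 in RSD and 0 to 30.4 in CON, and it was not tested.

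Among 16 tested receptor and target genes of interferon-gamma, 7 were positive and 9 negative, with a median of -0.04 and 0 called by limma. Gbp4, a guanylate-binding protein gene, was lower in RSD at -0.65 ± 0.23 and Gbp7 higher at 0.28 ± 0.12, each at unadjusted p under 0.05 and not called by limma (1 of 16 in each direction is 6.25%, against 1.98% of all genes lower and 2.02% higher). CON 18 was the highest library of Gbp4, and its difference without CON 18 was -0.42. RSD 8 was the highest library of Gbp7, and its difference without RSD 8 was 0.17. Jak2 differed by 0.18 ± 0.09, and by 0.11 without RSD 8. Of 33 tested other interferon-stimulated genes, 5 were positive and 28 negative (48.6% of all genes were negative), with a median of -0.11 and 0 called. Trex1, a DNA exonuclease, Parp10 and Shisa5 were lower at unadjusted p under 0.05, by -0.42 ± 0.18, -0.28 ± 0.13 and -0.26 ± 0.12, and all 3 were lowest in RSD 8. These are 9.09% of the list, against 1.98% of all genes. In limma's fit without CON 18, 0 of the 33 were at that level, and 19 were positive and 14 negative. Without RSD 8 there were also 0 at that level, with 2 positive and 31 negative. Trex1 differed by -0.26 without CON 18, and Parp10 and Shisa5 by -0.17 and -0.16 without RSD 8. Without CON 18 the medians of the 3 lists were -0.03, 0.00 and 0.02. The PYHIN genes Ifi203 and Mndal, relatives of Ifi204 whose reads may be split among near-identical copies, were at 2238 and 2617 normalized reads in CON 18, against at most 18.4 and 34.1 in any other library.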

How the data were processed

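Per the labels' protocols, microglia were enriched on Percoll, sorted, then lysed for RNA (PicoPure), and libraries were made with Ovation SoLo and AnyDeplete. Per the submitters' processing notes, STAR (mm10) and DESeq2 were used; their versions, the read counter and its use of strand are not stated there. The deposited signal per gene is a read count divided by a size factor: 100% of values were whole multiples of 1 step within 0.01 reads, so whole reads were recovered for all 13 libraries.

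The design named limma for normalized values, with edgeR in its place for raw counts, and limma was used. limma (3.58.1, R 4.3.3, trend and robust variance) was run on log2(value + 1), two-sided, with Benjamini-Hochberg adjustment over all genes at a threshold of 0.05. log2 differences on that scale understate low genes. filterByExpr (minimum count 10, minimum total 15) kept 12496 genes. edgeR (4.0.16) and DESeq2 (1.42.0) used the recovered reads. Gene coordinates, exon lengths and GC content came from GENCODE M21 (GRCm38), which held 13790 of the table's symbols and all 38 members. No pair of libraries matched within counting noise (chi-square over its degrees of freedom at least 4.13). Since nothing states that each sample is a separate animal, a p-value covers only the spread among these samples, which may be technical. The members and lists were chosen with earlier results of these data known. From the pathway lists, 1 gene is not reported here. Genes were described in full by a rule: 11 core members, the 3 with the smallest p in each direction, and the 5 with the largest ratio of 1 library to the rest; other members were added by role. Of the fits, only limma's comparison of RSD against CON was tested on simulated data. The edgeR, DESeq2 and interaction fits were not tested in this way.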

Additional observations from a re-analysis of the deposited data

Results flagged for a closer look

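Among 78 groups of values looked at (each member in RSD and in CON, and the members' median), 28 had a library further from the rest than Dixon's 95% limit allows. Chance gives about 1 in 20 for a single group, and 24 of the 28 were CON 18. These 24 flags rest on 1 library and the groups are not independent, so they are not 24 separate observations. In RSD 8 the values were 321 normalized reads for Mx2, 2491 for Slfn8, 303 for Samd9l and 991 for Parp9, each the highest of the RSD libraries.

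In CON 18, always the highest of the CON libraries, the values for signalling genes were 949 normalized reads for Stat2, 809 for Irf9, 189 for Irf7 and 198 for Usp18. RNA sensors and effectors had 279 (Oas1a), 43.9 (Oasl1), 437 (Oasl2), 1534 (Eif2ak2), 532 (Mx1), 383 (Mx2) and 115 (Rsad2). Restriction factors and nucleic acid sensors had 769 (Bst2), 131 (Ifitm3), 222 (Zbp1), 1765 (Ifi204) and 1376 (Sp100). The remaining members had 694 (Slfn5), 1243 (Samd9l), 3241 (Parp14), 56.3 (Ifi27l2a), 119 (Cxcl10), 22.5 (Ifi44) and 319 (Rtp4). The members' median deviation there was 1.11 log2.

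The RSD minus CON difference itself differed between samples numbered 10 to 19 and 1 to 8, without CON 18 and RSD 8, by -0.46 log2 for Parp9 and -0.42 for Parp14, by limma's interaction term. These are 2 of 36 members (5.56%), against 3.69% of all genes called in that fit. With all 13 libraries, without CON 18 alone or without RSD 8 alone, limma called 0 genes.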

How the results depend on the processing

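No paired analysis was possible because RSD and CON share no replicate number. No member was called in the RSD against CON comparison under any alternative run. The members' median was -0.26 with edgeR and with DESeq2. DESeq2 called 2 genes, and limma called 11 in numbers 10 to 19 without CON 18. The interaction gave 463 genes without CON 18 and RSD 8 (506 with edgeR). With 1 library left out it gave 0 to 1457, the highest without RSD 7. Both of these interaction settings, and numbers 10 to 19 without CON 18, were added after the data were seen. The members' median was 0.24 in numbers 1 to 8, and -0.20 to 0.02 with 1 library left out. Of 747 alternative values for 29 named genes, 692 kept their sign and 55 reversed; the cause was not tested except where fewer libraries entered. Reads limit Isg15, Oasl1 and Ifi44 most.

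In numbers 1 to 8 the reversed log2 differences were Ifi204 0.85, Ifit2 0.081, Ifit3 0.10, Isg15 -0.34, Oasl2 0.19, Usp18 0.0018, Xaf1 0.025, Zbp1 0.34, Ifnar1 0.063 and Ifnar2 0.21. In numbers 10 to 19 they were Cxcl10 -0.13, Herc6 -0.069, Ifit1 -0.37 and Irf8 0.019. In numbers 10 to 19 without CON 18, an alternative added after the data were seen, they were Bst2 0.19, Ifi204 0.15, Ifit1 -0.027, Ifit2 0.11, Ifit3 0.14, Irf7 0.069, Irf9 0.0080, Usp18 0.48, Gbp7 -0.017, Ifnar2 0.0036, Irf8 0.069, Jak2 -0.051 and Tyk2 0.057. Without CON 18 and RSD 8 they were Bst2 0.0082, Ifi204 0.27, Ifit3 0.037, Irf7 0.035, Isg15 -0.095, Usp18 0.15, Ifnar1 0.033 and Ifnar2 0.019. voom with quality weights gave Ifi204 0.058, Isg15 -0.077, Usp18 0.0058 and Ifnar1 0.021. edgeR gave Cxcl10 -0.40 and Isg15 -0.023, and DESeq2 Cxcl10 -0.42 and Isg15 -0.019.

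With 1 library left out the ranges were -0.016 to 0.81 for Cxcl10, -0.42 to 0.42 for Ifi204, -0.34 to 0.022 for Ifit2, -0.29 to 0.049 for Ifit3, -0.17 to 0.18 for Isg15, -0.21 to 0.15 for Usp18, -0.73 to 0.018 for Zbp1, -0.30 to 0.029 for Ifnar1 and -0.12 to 0.084 for Ifnar2.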
